A study of Mus musculus with 5 samples.

Results

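ZFP24 peaks at the starts of non-coding genes, away from the protein-coding starts of the annotation used, were described in mouse oligodendrocytes (OLG) and in the oligodendrocyte progenitor cells (OPC) from which they arise. A peak was a member when its centre lay within 1 kb of a transcript start of a gene that is not protein-coding, and more than 1 kb from every protein-coding transcript start of the GENCODE M21 basic annotation (mm10). There were 64 members among 1752 OLG peaks and 152 members among 4643 OPC peaks. ZFP24, also called ZFP191, is a zinc finger transcription factor, and its sites were mapped by chromatin immunoprecipitation and sequencing with an antibody against ZNF24, the human form of the protein. The OLG and the OPC came from C57BL/6 mice, immunopanned from brain at postnatal day 7, and the OLG had then been cultured for 5 days in medium that lacked PDGF and contained 40 ng/ml triiodothyronine, a thyroid hormone. Each cell type had 1 wild-type and 1 Zfp191-null library, and there was 1 input pooled over both cell types and genotypes. The labels name a single peak list for the wild-type and the null library of a cell type, and no source used here states what part the null and input reads had in calling them. With 1 library per group the lists have no replicate check. The deposited lists hold positions and no tag counts, so library depth is unknown, and the labelled cell types could not be checked against marker expression. Intervals are exact 95% intervals (Clopper-Pearson for shares, Poisson for densities) that cover counting error over peaks only.

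Long non-coding RNAs (lncRNAs) are transcribed from promoters of their own, and many start near, or antisense to, genes for developmental regulators. Some act as hosts, in that small nucleolar RNAs or microRNAs are cut from their introns or exons. A microRNA represses messenger RNAs that pair with its seed, bases 2 to 8 of the mature strand, so microRNAs that share a seed can reach overlapping targets. ZFP24 is needed for oligodendrocytes to mature and myelinate in the mouse, and its zinc fingers are known to bind repeats of the bases TCAT.

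The sequences of 7 members are shown because they lie at the starts and hosts described below. Each is the deposited interval, read 5′ to 3′ on the strand of the non-coding gene from GRCm38, with annotated exon of that gene, or the hairpin for Mir196b, in capitals. Snhg17 and Gm11915 had peaks in both cell types, and their OLG peaks are chr2:158361394-158361614 and chr4:28815106-28815326, both on the minus strand. The OLG peak upstream of Dleu2 is chr14:61682512-61682732 (minus), that inside 3110039I08Rik, which RefSeq names Mir100hg, is chr9:41581293-41581513 (plus), and that at Mir196b is chr6:52229905-52230125 (minus). The OPC peaks are at Mir99ahg, chr16:77670308-77670516 (plus), and upstream of Snhg8, chr3:123508624-123508832 (minus).
Snhg17, OLG: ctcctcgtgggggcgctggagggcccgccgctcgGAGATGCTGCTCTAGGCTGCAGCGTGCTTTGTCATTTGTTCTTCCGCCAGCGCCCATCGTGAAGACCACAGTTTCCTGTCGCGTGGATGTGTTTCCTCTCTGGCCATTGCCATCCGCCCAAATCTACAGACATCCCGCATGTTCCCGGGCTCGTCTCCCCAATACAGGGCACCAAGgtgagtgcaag
Gm11915, OLG: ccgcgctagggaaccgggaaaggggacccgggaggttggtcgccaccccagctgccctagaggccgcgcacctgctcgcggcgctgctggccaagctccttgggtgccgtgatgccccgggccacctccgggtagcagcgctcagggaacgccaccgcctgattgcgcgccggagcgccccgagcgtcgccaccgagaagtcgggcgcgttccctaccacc
Dleu2, OLG: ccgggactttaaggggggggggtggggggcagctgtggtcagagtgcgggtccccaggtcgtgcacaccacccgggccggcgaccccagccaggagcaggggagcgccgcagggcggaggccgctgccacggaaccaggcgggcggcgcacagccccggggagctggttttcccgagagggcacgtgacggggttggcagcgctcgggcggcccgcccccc
3110039I08Rik, OLG: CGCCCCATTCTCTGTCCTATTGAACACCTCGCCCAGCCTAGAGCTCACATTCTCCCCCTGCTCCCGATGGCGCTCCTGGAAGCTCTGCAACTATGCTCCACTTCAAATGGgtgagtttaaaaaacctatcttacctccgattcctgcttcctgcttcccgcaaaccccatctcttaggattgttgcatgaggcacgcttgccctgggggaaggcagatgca
Mir196b, OLG: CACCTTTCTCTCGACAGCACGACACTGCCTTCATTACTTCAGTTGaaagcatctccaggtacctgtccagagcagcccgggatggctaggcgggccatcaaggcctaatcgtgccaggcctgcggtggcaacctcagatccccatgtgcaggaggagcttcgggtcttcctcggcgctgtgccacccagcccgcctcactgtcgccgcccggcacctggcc
Mir99ahg, OPC: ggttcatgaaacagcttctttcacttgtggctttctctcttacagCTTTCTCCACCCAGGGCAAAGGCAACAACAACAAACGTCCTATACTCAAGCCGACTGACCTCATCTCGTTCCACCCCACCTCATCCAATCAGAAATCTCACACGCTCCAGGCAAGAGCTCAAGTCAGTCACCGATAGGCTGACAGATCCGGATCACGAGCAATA
Snhg8, OPC: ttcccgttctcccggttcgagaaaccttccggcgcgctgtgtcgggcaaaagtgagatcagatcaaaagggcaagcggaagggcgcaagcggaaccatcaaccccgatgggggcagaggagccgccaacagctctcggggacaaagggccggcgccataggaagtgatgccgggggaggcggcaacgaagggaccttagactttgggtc
The Snhg17 interval ran across the whole first exon, of which 176 bases are in capitals, and into the intron. The Gm11915, Dleu2 and Snhg8 intervals lay wholly upstream of their gene, and held 27, 24 and 18 CpG dinucleotides. The Gm11915 interval also lay inside the protein-coding gene Epha7, with its centre 181 bp from a RefSeq mRNA start of Epha7.

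The mature microRNAs whose hairpins lay within 1 kb of a member, or inside a host with a member at one of its starts, fell into several seed groups (RefSeq, GRCm38.p6). Those of the groups discussed below are shown with the seed in capitals. In the miR-9 group, 1 gene had a member upstream of its hairpin in OLG and the paralogous gene had one in OPC. In the miR-99/100 group the paralogous host genes had members in different lists. The OLG member lay 49899 bp downstream of Mir100, and 1 OPC member lay 4975 bp upstream of Mir99a.
mmu-miR-100-5p (Mir100, OLG): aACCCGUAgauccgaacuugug
mmu-miR-99a-5p (Mir99a, OPC): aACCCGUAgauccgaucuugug
mmu-miR-9-5p (Mir9-1, OLG, and Mir9-2, OPC): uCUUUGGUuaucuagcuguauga
mmu-miR-125b-5p (Mir125b-1, OLG): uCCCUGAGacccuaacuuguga
mmu-let-7c-5p (Mirlet7c-1, OPC): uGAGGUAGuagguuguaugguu
mmu-miR-196b-5p (Mir196b, OLG): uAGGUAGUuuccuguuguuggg
mmu-miR-16-5p (Mir16-1, OLG): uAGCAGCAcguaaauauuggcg
mmu-miR-411-5p (Mir411, OPC): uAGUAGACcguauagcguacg
mmu-miR-379-5p (Mir379, OPC): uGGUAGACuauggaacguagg
The seed ACCCGUA was shared by miR-100-5p and miR-99a-5p, and the seed CUUUGGU by the products of Mir9-1 and Mir9-2. The seed AUGUAAC was shared by miR-411-3p and miR-379-3p of 1 OPC member.

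Peaks at non-coding starts alone made up a few percent of each list, with intervals that overlap. They were 3.65% of all OLG peaks (95% interval 2.82 to 4.64) and 3.27% of all OPC peaks (2.78 to 3.83). Of the peaks outside protein-coding promoters they were 7.00% in OLG (5.43 to 8.85) and 5.07% in OPC (4.31 to 5.92). A further 145 OLG peaks and 255 OPC peaks lay within 1 kb of both kinds of start and are not members. Members had as their nearest non-coding start 63 different genes in OLG and 149 in OPC. Eligible non-coding genes were those with some sequence within 1 kb of a start that was also over 1 kb from protein-coding starts. Of these 31846 genes, 81 (0.254%) had an OLG member within 1 kb and 165 (0.518%) an OPC member.

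Density set lncRNA starts apart from pseudogene starts in both lists. The intervals of the other broad classes named below overlapped that of lncRNAs in OLG and lay under it in OPC. Per megabase of sequence near lncRNA starts there were 2.17 OLG members (1.53 to 2.99) and 5.92 OPC members (4.82 to 7.19). Near pseudogene starts, copies of genes that mostly lack a promoter, there were 0.402 OLG members (0.193 to 0.739) and 1.09 OPC members (0.715 to 1.58). Sequence over 1 kb from every start held 0.347 peaks per megabase in OLG (0.324 to 0.371) and 1.16 in OPC (1.12 to 1.21), and in both lists these intervals overlap those of pseudogene starts. Protein-coding promoters held 15.7 peaks per megabase in OLG and 30.8 in OPC, above each broad class of non-coding start (lncRNAs, pseudogenes, microRNAs, other small RNAs, immune receptor segments and TEC entries, which are transcribed loci whose gene status is unproven). Of the finer annotated types, sense_overlapping, bidirectional_promoter_lncRNA and IG_C_gene starts held 1 OLG member each on little sequence and reached 17.2 (0.437 to 96.1), 17.7 (0.448 to 98.5) and 41.6 (1.05 to 232) per megabase, intervals that include the promoter value. MicroRNA starts, which the annotation places at the hairpin and not at the primary transcript, held 2.24 members per megabase in OLG (0.968 to 4.42) and 1.96 in OPC (0.789 to 4.04).

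**Figure D1:**
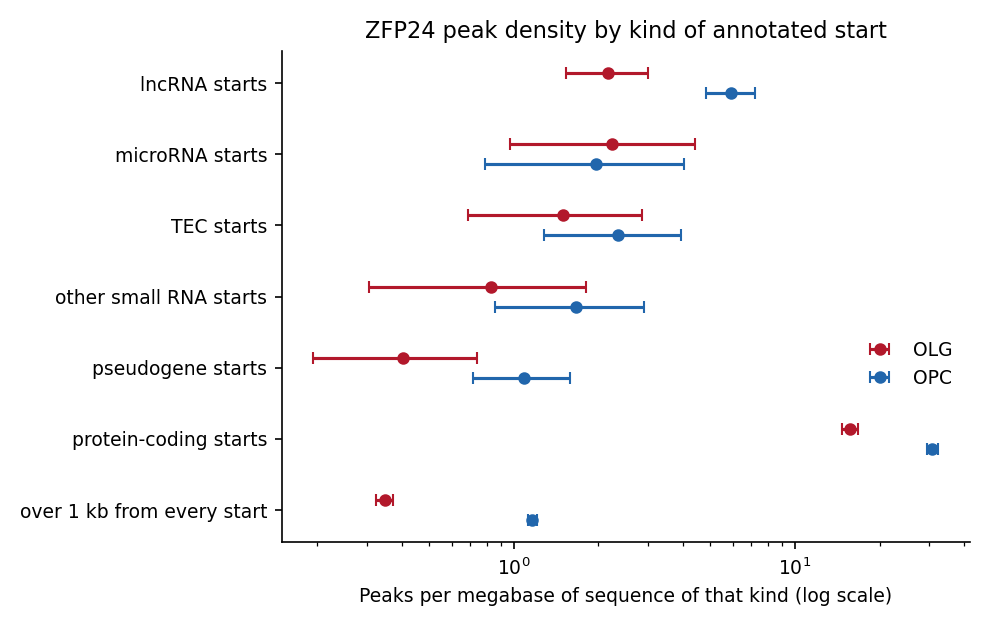
Peaks per megabase (log axis) within 1 kb of the annotated starts of each kind, and over 1 kb from every start, for OLG (red) and OPC (blue), with exact 95% Poisson intervals that cover counting error only. Starts of lncRNAs held 2.17 and 5.92 members per megabase, and pseudogene starts stood near the level of sequence away from starts.

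By the nearest start, lncRNA genes accounted for 35 of 64 OLG members (54.7%, interval 41.7 to 67.2) and 97 of 152 OPC members (63.8%). Among all eligible genes of each kind, 0.424% of lncRNA genes had an OLG member and 1.07% an OPC member, against 0.0800% and 0.216% of pseudogenes, 0.282% and 0.439% of TEC entries, and 0.463% and 0.463% of microRNA genes. Intergenic lncRNAs (lincRNAs) were 12 of 64 members in OLG (18.8%, 10.1 to 30.5) and 50 of 152 in OPC (32.9%, 25.5 to 41.0). Antisense lncRNAs were 15 of 64 in OLG (23.4%) and 25 of 152 in OPC (16.4%). The rest comprised 10 pseudogenes, 7 TEC entries, 5 microRNAs, 5 other small RNAs and 2 immune receptor segments in OLG, and 27 pseudogenes, 13 TEC entries, 6 microRNAs and 9 other small RNAs in OPC. The difference between lists was not tested, since each rests on 1 library.

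Genes named Snhg are hosts of small nucleolar RNAs, which guide the modification of ribosomal RNA, and several had an OPC peak near a start. Of 14 annotated Snhg genes, among them Snhg11, which the annotation lists as protein-coding, 1 had a start within 1 kb of an OLG peak and 7 had one within 1 kb of an OPC peak. For Snhg1 the OPC peak was also within 1 kb of a protein-coding start, so it is not a member. Of the 9 Snhg genes whose starts all lie over 1 kb from protein-coding starts, 1 had an OLG member and 6 an OPC member. Among eligible lncRNA genes the shares were 0.424% and 1.07%, but some of those genes start within 1 kb of a protein-coding start. For 5 hosts with other names, Gas5, Zfas1, Dancr, Rian and Epb41l4aos, the nearest peak was at least 37031 bp from a start in OLG and 43635 bp in OPC. The OPC member centres lay 63 bp from a start of Snhg17, 94 bp from Snhg15, 109 bp from Snhg6, 162 bp from Snhg5, 324 bp from Snhg8 and 593 bp from Snhg3. The nearest OLG peak to any start of these genes was 6 bp away at Snhg17, where the nearest start was a different one. It was 23432 bp away at Snhg3 and over 100 kb away at Snhg5, Snhg6, Snhg8 and Snhg15. The member at Snhg3 was nearest to Snora73a, a small nucleolar RNA 547 bp from its centre, and lay in an intron of Rcc1. The Snhg genes were singled out, and the other hosts chosen, after their values were seen, and no test was made.

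Other small nucleolar RNAs with given names sat in genes for ribosomal proteins and ribosome assembly. Snord34, in the ribosomal protein gene Rpl13a, lay 46 bp from an OLG member, and Snora75, in the nucleolin gene Ncl, lay 241 bp from an OPC member. A list of known non-coding RNA genes had 72 matches, of which 2, Gnas and Snhg11, are annotated as protein-coding and a few are small RNAs. Of the 49 whose starts all lie over 1 kb from protein-coding starts, 3 in OLG and 9 in OPC had a member within 1 kb of a start. In OLG these were Dleu2, Snhg17 and Sox1ot. In OPC they were the 6 Snhg genes above, Oip5os1, Sox2ot and Pvt1. Over all eligible lncRNA genes, by the looser rule above, 0.424% had an OLG member and 1.07% an OPC member. The OPC member at 1700020I14Rik, which RefSeq names Oip5os1 and which is also known as Cyrano, lay 152 bp from the start in sequence of 70.0% GC. The member near Pvt1, a lncRNA beside the growth regulator Myc, lay 232 bp from a Pvt1 start and was nearest to the small RNA Gm27913. For 46 of the 72 listed genes the nearest OLG peak was over 100 kb away, and for 26 of the 72 the nearest OPC peak.

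Sox1ot and Sox2ot are transcripts that overlap Sox1 and Sox2, which encode factors of neural stem cells. In OLG, a member lay 552 bp upstream of Sox1ot and 10076 bp from the Sox1 start, and a member at the TEC entry Gm42692 lay inside the Sox2ot gene, 8124 bp from the Sox2 start. The OLG peak nearest to a Sox2ot start was 3984 bp away. In OPC, a member lay 213 bp downstream of a Sox2ot start, 115643 bp from the nearest protein-coding start, that of Dnajc19. Members at antisense genes named for their partner were Egfros, in an intron of the growth factor receptor gene Egfr, and Ccdc34os in OLG, and Kcnab3os and Bcas1os2 in OPC. Bcas1 marks oligodendrocytes at the onset of myelination, and the OPC peak lay 72 bp from the Bcas1os2 start in an exon of Bcas1, 71539 bp from the nearest Bcas1 start. Bach2it1, an intronic transcript of the transcription factor gene Bach2, had an OPC member 859 bp from its start.

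MicroRNA hosts had 4 members at 3 genes in OLG and 5 members at 4 genes in OPC. Dleu2, the host of Mir15a and Mir16-1 and a locus lost in human chronic lymphocytic leukaemia, had OLG members at both of its groups of starts. One lay 249 bp upstream of the 5′ end in sequence of 77.0% GC, and the other 594 bp downstream of an internal start, 34.3 kb into the gene and 16056 bp upstream of the Mir16-1 hairpin. The OPC peak nearest to a Dleu2 start was 208655 bp away.

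The paralogous hosts of the miR-99/100, let-7 and miR-125b clusters had members in different lists. In OLG, the peak in 3110039I08Rik (Mir100hg) was 42 bp downstream of an internal start and 523 bp upstream of the Mir125b-1 hairpin. It lay 49899 bp downstream of Mir100 and 44592 bp downstream of Mirlet7a-2, so a transcript from that start would not contain either. In OPC, 1 peak of Mir99ahg lay 405 bp upstream of an internal start and 4975 bp upstream of Mir99a and 5696 bp upstream of Mirlet7c-1. The other lay 57 bp downstream of a later start and 24069 bp downstream of Mir125b-2, past all 3 microRNAs of the host. An exon of another Mir99ahg transcript begins just upstream of that later start, so this peak also covers exon of that transcript. The nearest OPC peak to the Mir100hg member was 307003 bp away, and the nearest OLG peaks to the Mir99ahg members were 1221639 and 1298090 bp away.

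**Figure D2:**
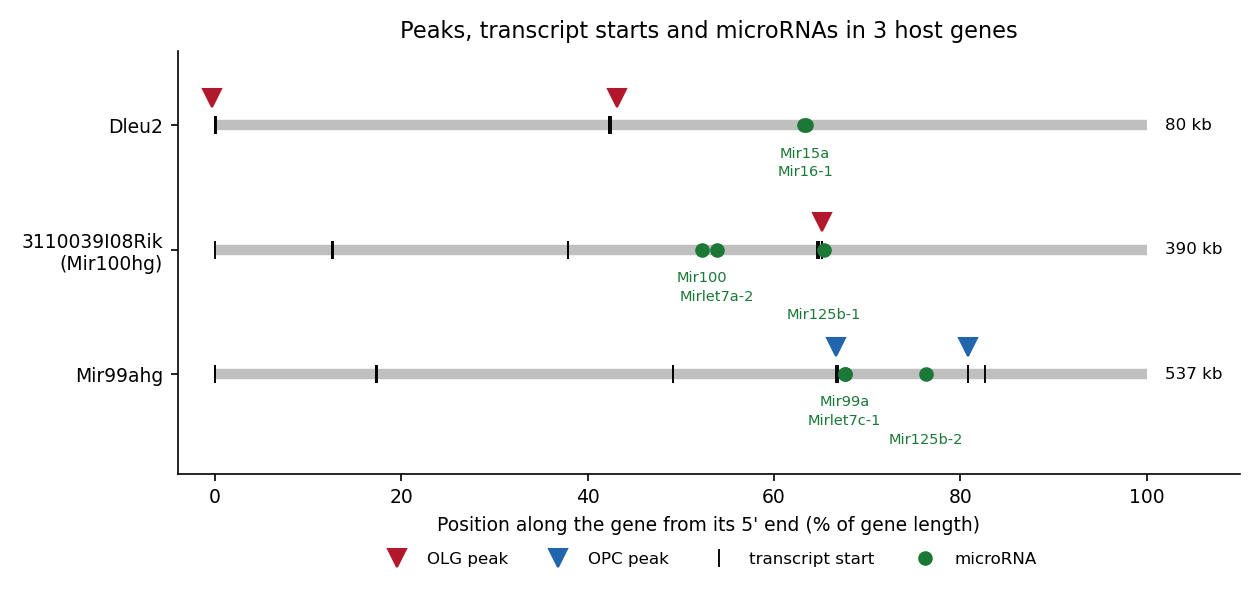
Positions of member peaks (triangles), annotated transcript starts (ticks) and microRNAs (green) along 3 host genes, each scaled to its own length from the 5′ end. OLG peaks lie 0.249 kb before and 34.3 kb into Dleu2 and 254 kb into 3110039I08Rik, and OPC peaks 358 and 434 kb into Mir99ahg.

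The genes of miR-9, a microRNA of neural progenitors, likewise had members in different lists. In OLG, the member nearest to Mir3093 lay 244 bp upstream of the Mir9-1 hairpin, in CpG-rich sequence of 62.5% GC. In OPC, the member at the TEC entry Gm33366 lay 887 bp upstream of the Mir9-2 hairpin, in sequence of 61.0% GC. The nearest OPC peak to the Mir9-1 member was 72382 bp away, and the nearest OLG peak to the Mir9-2 member 12584 bp away. The OLG member at Mir196b, in an intron of Hoxa9, overlapped the hairpin, with its centre 66 bp past the edge. The OPC member at Mir411 lay 284 bp upstream of that hairpin and within 1 kb of Mir379, Mir299a and Mir299b, all in an imprinted microRNA cluster. Mir9-2 was named after its values were seen.

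The remaining microRNA starts were mostly in introns. In OLG they were Mir6901 in Sned1, Mir7687 in Gse1 and Gm23045 between genes. In OPC they were Mir6957 in Grap2, Mir7655 in Mllt10, Mir8120, Gm25952 and n-TStga1, which RefSeq lists as a tRNA. Members nearest to another gene lay 138 bp from the Mir760 hairpin (at Gm40190) and 202 bp from Mir5121 (at Snord34) in OLG. Sox2ot hosts Mir1897, which lay 441500 bp from the OPC member, and 2900076A07Rik hosts Mir1839, which lay 7086 bp from it. Sox1ot in OLG holds Gm25239, and Zswim6 in OPC, a gene that RefSeq lists as protein-coding, holds Gm22118.

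Members were spread over the whole window around their start. The median distance to the nearest non-coding start was 264 bp in OLG and 405 bp in OPC, and at lncRNA starts 154 bp in OLG and 416 bp in OPC. At lncRNAs, 21 of 35 OLG members (60.0%, 42.1 to 76.1) and 37 of 97 OPC members (38.1%, 28.5 to 48.6) were within 250 bp, and these intervals overlap. Peaks at protein-coding promoters were within 250 bp of a start in 45.9% of cases in OLG and 48.2% in OPC. Downstream positions numbered 41 of 64 members in OLG and 87 of 152 in OPC, and the split was not tested. In OPC they were 59 of 97 at lncRNA starts, 14 of 27 at pseudogene starts and 14 of 28 at the other types. The OLG peaks nearest to their start were at C230037L18Rik (5 bp), Snhg17 (6 bp) and Gm40190 (8 bp), and the OPC peaks nearest to theirs were at AC116849.2 (1 bp), 9230106D20Rik (2 bp) and 9630013D21Rik (15 bp).

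**Figure D3:**
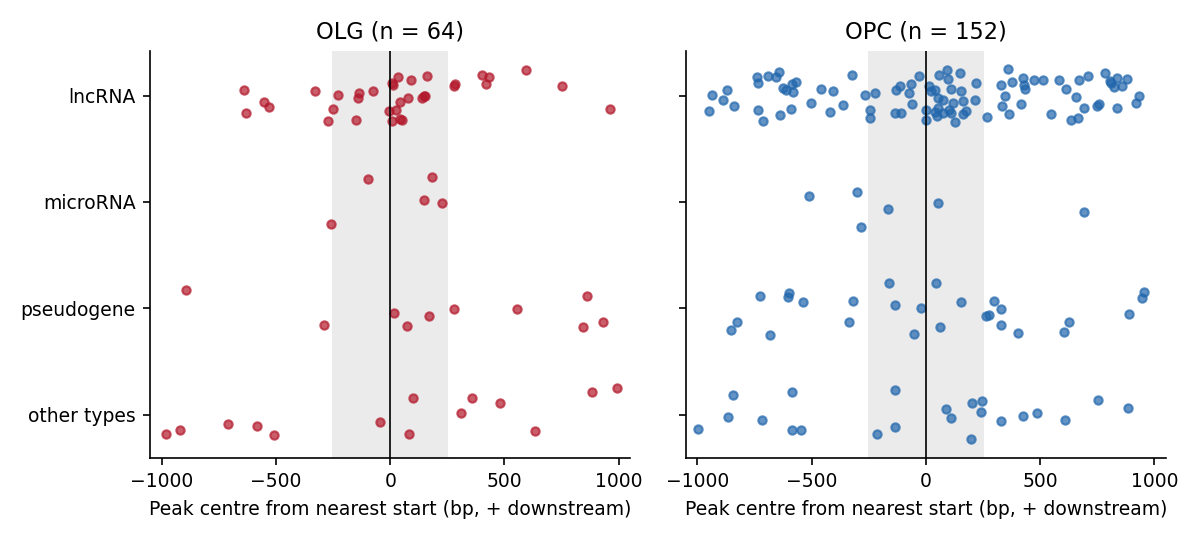
Signed distance in bp from the nearest non-coding transcript start to the peak centre, for 64 OLG members (left) and 152 OPC members (right), 1 point a member, by type of gene; positive values are downstream and the grey band marks 250 bp to each side. At lncRNAs 60.0% of OLG points and 38.1% of OPC points lie in the band.

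In base composition the members stood between protein-coding promoter peaks and peaks away from starts. Median GC content in the 200 bp around the centre was 57.0% in OLG members and 51.0% in OPC members, 68.5% and 64.0% in the promoter peaks of the same lists, and 51.0% and 47.5% in the peaks away from starts. Windows at all 32088 non-coding gene starts had a median of 47.0%. CpG-rich members, with at least 55% GC and a CpG observed over expected of at least 0.6, numbered 24 of 64 in OLG (37.5%, 25.7 to 50.5) and 34 of 152 in OPC (22.4%, 16 to 29.8). Promoter peaks were CpG-rich in 80.9% of cases in OLG and 66.7% in OPC, and peaks away from starts in 11.0% and 4.47%. Of the CpG-rich members, 18 in OLG and 28 in OPC were at lncRNA starts, and 3 and 1 at pseudogene starts.

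**Figure D4:**
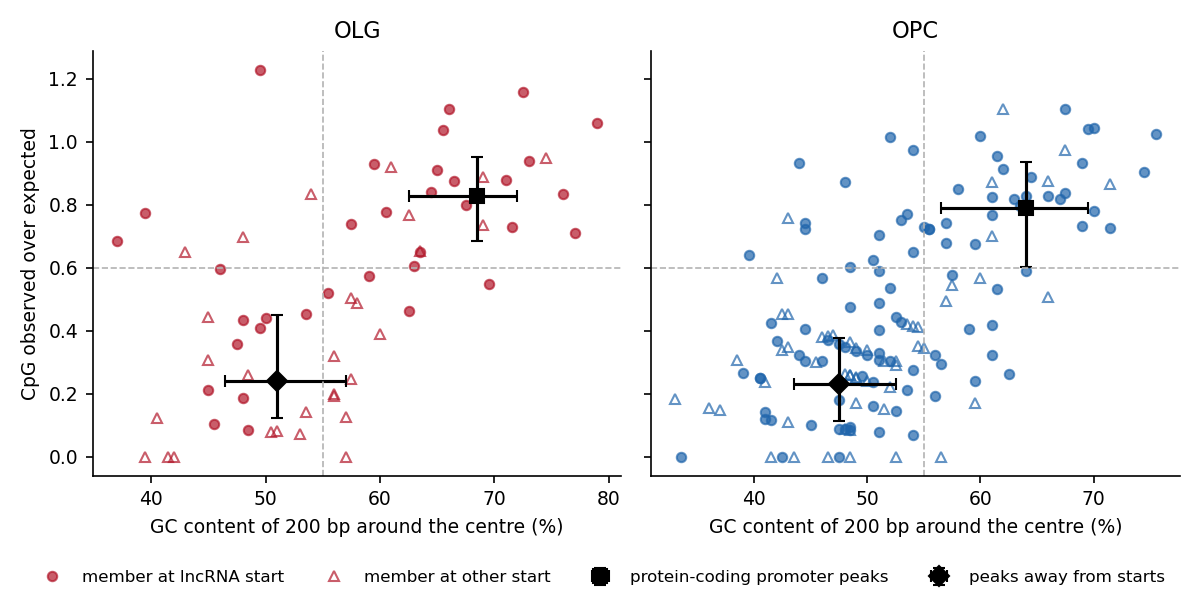
GC content against CpG observed over expected in the 200 bp around each member's centre, for OLG (left) and OPC (right); filled circles are members at lncRNA starts and open triangles the other members. Black symbols give the median and quartiles of protein-coding promoter peaks and of peaks away from starts, and dashed lines the limits of 55% GC and 0.6; 24 OLG and 34 OPC members lie above both.

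The GC box GGGCGG, which Sp1-type factors bind, was read on both strands of the same windows. It was present in 19 of 64 OLG members (29.7%) and 20 of 152 OPC members (13.2%), in 41.1% and 31.4% of promoter peaks, and in 7.62% of all non-coding start windows. The E-box CAGCTG was found in 9.38% of OLG members and 13.8% of OPC members, against 11.5% of all non-coding start windows. The Sox core ACAATG was found in 7.81% and 12.5%, against 11.4%, and TGANTCA in 6.25% and 6.58%, against 5.59%. The ETS site CCGGAAGT was present in 2 OLG members (3.12%) and 2 OPC members (1.32%), against 0.717% of all non-coding start windows. The cyclic AMP element TGACGTCA was present in 0 of either, against 0.390%. Both OLG members with a TCAT tract, and F730016J06Rik in OPC, also held TGANTCA in the window.

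Tandem TCAT of at least 12 bases, on either strand, was found in 2 of 64 OLG members (3.12%, 0.381 to 10.8) and 11 of 152 OPC members (7.24%, 3.67 to 12.6). Over whole lists it was present in 5.71% of OLG peaks and 12.2% of OPC peaks, and in 0.0499% of all non-coding start windows (16 of 32088). In OPC the member share exceeded that of protein-coding promoter peaks, 42 of 1646 or 2.55% (odds ratio 2.98, 95% interval 1.35 to 6.05, adjusted p = 0.0141 by two-sided Fisher's exact test with Benjamini-Hochberg adjustment over 8 tests). It was below that of OPC peaks away from starts, 514 of 2844 or 18.1% (odds ratio 0.354, 0.171 to 0.659, adjusted p = 0.00213 by the same exact test). In OLG neither difference passed: promoter peaks held tracts in 23 of 838 cases (2.74%, odds ratio 1.14, 0.128 to 4.81, adjusted exact p = 0.696) and peaks away from starts in 75 of 848 (8.84%, odds ratio 0.332, 0.0387 to 1.30, adjusted exact p = 0.253). By gene type the OPC tracts were at 5 of 97 lncRNA members, 3 of 27 pseudogene members and 3 of 13 TEC members. Without pseudogenes, TEC entries and immune receptor segments, 5 of 115 OPC members held a tract, and the difference from promoter peaks did not pass (odds ratio 1.74, adjusted exact p = 0.559). Within 500 bp of a start it did not pass either, with 3 of 111 members (odds ratio 2.44, adjusted exact p = 0.223), and the shortfall against peaks away from starts did not pass with a 2 kb window (odds ratio 0.618, adjusted exact p = 0.0578).

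The tracts of 6 members are shown on the strand that reads TCAT, with 10 flanking bases on each side and the tract in capitals, because they include both OLG cases, the longest, and those nearest to homeodomain genes.
F730016J06Rik, OLG and OPC, chr2:28117548-28117586 (minus): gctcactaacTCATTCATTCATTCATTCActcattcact
1200007C13Rik, OLG, chr2:167832600-167832634 (plus): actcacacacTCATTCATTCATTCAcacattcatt
4732419C18Rik, OPC, chr8:123754576-123754637 (minus): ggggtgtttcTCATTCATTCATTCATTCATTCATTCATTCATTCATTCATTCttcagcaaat
2810405F15Rik, OPC, chr2:116076787-116076839 (plus): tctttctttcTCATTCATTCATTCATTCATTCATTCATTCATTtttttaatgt
Gm43763, OPC, chr5:37806732-37806767 (plus): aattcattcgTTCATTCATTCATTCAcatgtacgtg
4930513N20Rik, OPC, chr7:130654146-130654200 (plus): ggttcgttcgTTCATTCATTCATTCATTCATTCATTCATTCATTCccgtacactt
These tracts measured 19, 15, 42, 33, 16 and 35 bases in the order shown. The member at 4732419C18Rik lay 96 bp from the lncRNA start. That at 2810405F15Rik was 10975 bp from Meis2, and that at Gm43763 was 17868 bp from Msx1, both genes for homeodomain factors. The other OPC tracts were at Gm38575 (17 bases), Gm47606 (33), AC134591.1 (29), Gm13614 (18), Rpl31-ps5 (32) and Gm6581 (35). Of the 11 OPC members with a tract, 3 had their centre within 500 bp of the start, at 4732419C18Rik, at Gm47606 (109 bp) and at 4930513N20Rik (198 bp).

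**Figure D5:**
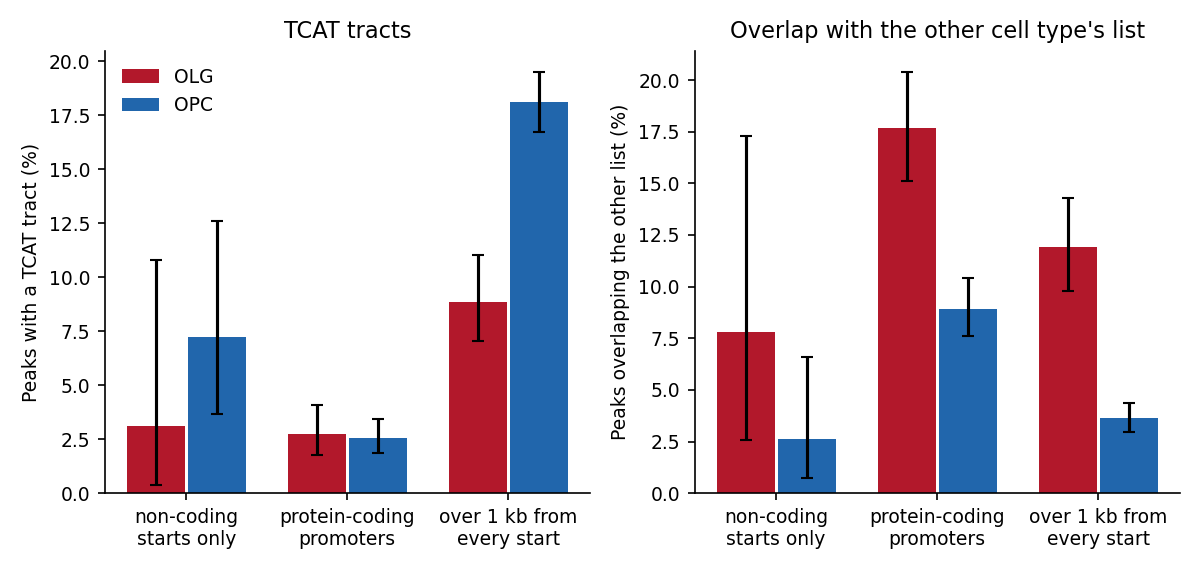
Share of peaks with a TCAT tract of at least 12 bases (left) and share overlapping a peak of the other cell type's list (right), for OLG (red) and OPC (blue), in members, protein-coding promoter peaks and peaks away from starts; bars start at 0 and lines are exact 95% intervals. OPC members hold tracts in 7.24% of cases, between 2.55% and 18.1%.

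Few members were shared between the cell types. In OLG 5 of 64 members (7.81%, 2.59 to 17.3) overlapped an OPC peak, and in OPC 4 of 152 (2.63%) overlapped an OLG peak, where whole lists overlapped in 14.5% of OLG and 5.47% of OPC peaks. OPC members overlapped less often than OPC promoter peaks, of which 147 of 1646 (8.93%) did (odds ratio 0.276, 0.0731 to 0.737, adjusted exact p = 0.0141), while the difference from peaks away from starts, 103 of 2844 (3.62%), did not pass (odds ratio 0.719, adjusted exact p = 0.696). In OLG, 148 of 838 promoter peaks (17.7%, odds ratio 0.395, adjusted exact p = 0.110) and 101 of 848 peaks away from starts (11.9%, odds ratio 0.627, adjusted exact p = 0.560) overlapped, and neither difference passed. The OLG difference from promoter peaks did pass with a 2 kb window (odds ratio 0.300, adjusted exact p = 0.0293), with centres within 1 kb counted (0.277, adjusted exact p = 0.00266) and with a peak of the other list at the same start counted (0.235, adjusted exact p = 9.45e-04). The last of these was adjusted over fewer than 8 tests, because peaks away from starts have no start to share. The OPC difference from promoter peaks did not pass with a 500 bp window (adjusted exact p = 0.0526), without pseudogenes, TEC entries and immune receptor segments (0.156), in the lower-numbered 50% of the peaks (0.314), or when the overlap had to cover 50% of the shorter peak (0.0555), and its odds ratio was below 1 in each.

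Overlapping members in both lists stood at 4 lncRNA genes. At Snhg17 the OLG centre lay 6 bp from 1 start and the OPC centre 63 bp from another, and the centres were 139 bp apart. At Gm11915, antisense to the ephrin receptor gene Epha7, they lay 140 and 66 bp from the lncRNA start, and 181 and 255 bp from a RefSeq Epha7 mRNA start. At Gm32569, 36368 bp from Xcl1, they lay 432 and 514 bp from the lncRNA start. At F730016J06Rik, 32680 bp from Fcnb, they lay 642 and 692 bp away, over the same 19-base TCAT tract. At 1 more start, Gm29246 in an intron of Sobp, the centres were 225 bp apart, at 41 and 266 bp, and the peaks did not overlap. The OLG member at 1200007C13Rik overlapped an OPC peak whose centre lay 1135 bp from that start, so that it is not a member.

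Protein-coding neighbours were mostly many kilobases away. The median distance from a member to the nearest protein-coding start was 17183 bp in OLG and 22453 bp in OPC, against 18734 and 32719 bp for peaks over 1 kb from every start. In OLG 12 of 64 members (18.8%) and in OPC 15 of 152 (9.87%) lay within 2 kb of one. Of the lncRNA members among these, 7 of 9 in OLG and 11 of 13 in OPC belonged to lncRNAs that run head-on towards the neighbour. Divergent pairs with starts closer than the window are outside the rule, which therefore bears on this count. Such head-on lncRNAs included Gm29246 at Sobp and Gm43573 at Adgrl2 in OLG, and Gm29246 at Sobp, Gm20402 at Foxo1 and Gm26894 at Shh in OPC, all named after their values were seen. The start of the non-coding gene lay antisense within a protein-coding gene for 17 of 64 OLG members (26.6%) and 35 of 152 OPC members (23.0%). Neither these counts nor those of head-on lncRNAs were set against all non-coding starts, so they are description only. A RefSeq mRNA start lay within 1 kb of 6 OLG and 11 OPC members, among them those at Gm11915 (Epha7) in both lists and at Zswim6 and Gm26894 (Shh) in OPC.

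Homeodomain factors, which pattern the nervous system, were neighbours of 3 OLG and 6 OPC members. Of all 21679 protein-coding genes, 0.291% were nearest to an OLG member and 0.687% to an OPC member, and of 136 listed homeodomain genes 3 (2.21%) and 6 (4.41%) were. As shares of members these were 4.69% in OLG (0.977 to 13.1) and 3.95% in OPC (1.46 to 8.39), against 2.12% and 2.04% of peaks away from starts, which lie within the intervals. Those in OLG included Pou3f2 (1653 bp) and Hoxa9 (2645 bp). In OPC they were Pitx1 (4054 bp), Meis2 (10975 bp), Barhl2 (12509 bp), Onecut1 (12653 bp), Msx1 (17868 bp) and Zfhx3 (178244 bp).

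Of 50 regulators of the oligodendrocyte lineage, 1 in OLG and 2 in OPC were the nearest protein-coding gene of a member. These were Sox2 in OLG, and Klf9, a thyroid hormone target 5949 bp away, and Sox4, 11309 bp away, in OPC. Of 44 genes of myelin and mature oligodendrocytes, 0 in OLG and 2 in OPC were neighbours, namely Bcas1 and Enpp6 (28094 bp). Of 25 progenitor markers, 0 in OLG and 1 in OPC was, Lhfpl3 at 167855 bp. None of 24 neuronal, 17 astrocyte, 16 microglial and 18 vascular markers, nor of 41 cell cycle and chromatin genes, was the nearest protein-coding gene of a member in either list. Of all 21679 protein-coding genes, 0.291% were nearest to an OLG member and 0.687% to an OPC member. At these shares lists this short would often hold none, so a count of 0 shows no lack. Lineage regulators were the neighbours of 1.56% of OLG and 1.32% of OPC members, against 1.06% and 1.44% of peaks away from starts. For the myelin list in OPC these shares were 1.32% (0.160 to 4.67) and 0.316%, and for progenitor markers 0.658% and 0.598%.

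At the edge of the rule, the OLG members furthest from their non-coding start were at Gm38285 (994 bp) and Gm42692 (983 bp), and the nearest peak outside was 1063 bp from Gm15908. In OPC the furthest member was 996 bp from Gm25064, and the nearest peak outside was 1013 bp from Gm37608. On the side of protein-coding starts, the closest OLG member was 1076 bp from Sim2 and the closest peak left out was 971 bp from Pcgf5. In OPC these were 1001 bp from Sobp for the member and 1000 bp from Uap1 for the peak left out.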

How the data were processed

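ZFP24 ChIP-seq libraries of wild-type and Zfp191-null mouse cells were read as 75 nt single-end reads, per the labels' protocols. BWA, HOMER 4.8.3 and mm10 are named in the submitters' processing notes. The sources used here do not give the peak-calling threshold or the use of null and input libraries in it. The deposited unit is a peak position: the authors deposited 2 lists of 4 columns (chromosome, start, end, name) with no score or count. All OLG peaks were 221 bp and all OPC peaks 209 bp wide.

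Peak centres were set against GENCODE M21 basic transcript starts and GRCm38.p6 sequence with Python 3.11.15, numpy 2.4.6, scipy 1.17.1, pandas 2.3.3 and pysam 0.24.0. Positions are 1-based. Sequence measures used the 200 bp around the centre. Densities divide peaks by the sequence within 1 kb of starts of that kind and over 1 kb from protein-coding starts. Neighbour counts use the nearest protein-coding start. Peaks sharing 1 bp or more with a peak of the other list were counted as overlapping. Within a list, members were compared with protein-coding promoter peaks and with peaks over 1 kb from every start by two-sided Fisher's exact tests, with Benjamini-Hochberg adjustment over all 8 and a threshold of 0.05. No test was made between lists. The steps were tested on simulated data.

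Named were members at microRNAs and their hosts, members overlapping the other list or holding a tract, members at RNA genes with given names, and members whose gene or neighbour is in a gene list. The members and lists were chosen with earlier results of these data known. Alternatives were other windows, starts, distances, gene types, tract lengths and overlap rules, the lower-numbered 50% of the peaks of each chromosome (the number in the peak name, whose meaning is not stated), and, chosen after seeing the data, leaving out members within 1 kb of a RefSeq mRNA start. The distance to 1 neighbouring gene is not reported here.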

Additional observations from a re-analysis of the deposited data

How the results depend on the processing

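Of 106 recomputed values, 85 kept their direction and their side of the threshold or, for a number of members, stayed within 1.5 times it and, for the lncRNA share, within its interval. The share of peaks that were members left its interval in OPC with a 500 bp window (111 members, 2.39%), with a 2 kb window (203, 4.37%) and without pseudogenes, TEC entries and immune receptor segments (115, 2.48%), and in OLG without those types (45, 2.57%). No paired analysis was possible because each group has 1 library and no test was made between groups. In the lower-numbered 50% of the peaks there were 36 OLG and 72 OPC members, and the overlap odds ratio of OPC members against promoter peaks was 0.441 and no longer passed. The lncRNA share of members was 68.9% in OLG with a 500 bp window and 54.2% in OPC with a 2 kb window. Without pseudogenes, TEC entries and immune receptor segments it was 77.8% in OLG and 86.1% in OPC, which follows from removing the other types, and the odds ratios of OPC members against promoter peaks, 1.74 for tracts and 0.367 for overlap, no longer passed. With a 500 bp window 0 of 61 OLG members held a tract, so that the odds ratio was 0 against promoter peaks, the reverse direction, and 0 against peaks away from starts, where the difference then passed (adjusted exact p = 0.0464). In OPC that window gave 2.44 for tracts and 0.279 for overlap against promoter peaks, neither of which passed. With a 2 kb window the tract odds ratio was 0.980 in OLG against promoter peaks, in the reverse direction, and 0.618 in OPC against peaks away from starts, no longer passing, while the OLG overlap odds ratio against promoter peaks, 0.300, passed. Tracts of at least 8 bases gave 0.740 in OLG, in the reverse direction, and 2.04 in OPC, no longer passing, both against promoter peaks. The OLG overlap odds ratio also passed with centres within 1 kb (0.277) and with a peak of the other list at the same start (0.235), and the OPC one did not when the overlap had to cover 50% of the shorter peak (0.290). Where values changed, the cause was not tested unless stated. Leaving out members near RefSeq mRNA starts changed no call. With 64 and 152 members, differences of a few members are not detectable, and with 1 library per cell type and unknown depth a site missing from a list is not shown to be unbound.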

Other observations

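Several members lay near developmental regulators outside the gene lists, named here after their values were seen. In OLG, Gm49620 had a member 1076 bp from the start of Sim2, a transcription factor gene of the midline, and Gm38285 one 1686 bp from Tshz3, a zinc finger factor gene. Gm28616 had an OLG member 2647 bp from Auts2, and Gm30177 one 4043 bp from Nrn1, which encodes neuritin. In OPC, Gm26755 had a member 2658 bp from Neurod1, a neuronal differentiation factor gene, Gm43445 one 3541 bp from Lmo4 and Gm43120 one 7749 bp from Tbx15. These are distances only, and no expression was measured.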
